A study of Homo sapiens with 4 samples.

Results

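The genes of the unfolded protein and amino acid response were examined in nascent RNA of Karpas 299, an established human line of anaplastic large cell lymphoma. This is a tumour of T cell origin that displays CD30, a receptor of the tumour necrosis factor family. The set comprised 37 named genes of 22798 with an entry on their own strand, and all 37 were found, each with a single entry. It was chosen by name from knowledge of the pathway: 14 genes driven by the factors ATF6 and XBP1, 18 genes driven by the factor ATF4, and 5 sensors and factors. Bru-seq measured the nascent RNA: bromouridine is built into new transcripts, which an antibody then pulls out for sequencing. In the first experiment cells received SM-164, a Smac mimetic that antagonises inhibitor of apoptosis (IAP) proteins, or the solvent DMSO; the labels give no dose. In the second, cells were exposed to Chinese hamster ovary (CHO) cells that carry the CD30 ligand (CD30L+ CHO) or to plain CHO cells, and were collected by pipetting. All 4 treatments lasted 3 h with labelling in the last 30 min, and each condition was a single library of this 1 line. No difference below has a replicate check, so none has a p-value, and "higher" and "lower" describe these libraries.

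The endoplasmic reticulum folds secreted and membrane proteins, and unfolded protein there is sensed by 3 membrane proteins. IRE1 (gene ERN1) splices the mRNA of XBP1 into the form that encodes an active factor, ATF6 is cut so that its factor domain reaches the nucleus, and PERK (gene EIF2AK3) phosphorylates the initiation factor eIF2. XBP1 and ATF6 then drive chaperones and the machinery that degrades misfolded protein. Phosphorylated eIF2 lowers general translation but lets ATF4 mRNA be translated, and ATF4 drives genes of amino acid uptake and synthesis together with other stress factors. A lack of amino acids reaches ATF4 by another eIF2 kinase, and activated T cells use the same transporters to feed growth. Splicing, cleavage, phosphorylation and translation are not seen in read counts, so the values below concern levels of newly made RNA only.

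Promoter windows are shown for 5 genes, to let the elements known for these factors be seen beside the genes compared here. Of the 37 genes, 35 matched a RefSeq promoter window (GRCh38.p14), of which the 250 bases before the gene's start are printed 5′ to 3′ on the strand of the gene. Where a gene has several windows, the first listed is shown. Capitals mark a match on either strand to 1 of 4 motifs: the ER stress response element ERSE (CCAAT and CCACG with 9 bases of any kind between them), ERSE-II (ATTGG and CCACG with 1 base between them), the XBP1 element UPRE (TGACGTGG) and the C/EBP-ATF element CARE bound by ATF4 (TGATGNAA). No match overlapped another in the 5 windows shown.
HSPA5 (chr9:125241344-125241593, minus strand): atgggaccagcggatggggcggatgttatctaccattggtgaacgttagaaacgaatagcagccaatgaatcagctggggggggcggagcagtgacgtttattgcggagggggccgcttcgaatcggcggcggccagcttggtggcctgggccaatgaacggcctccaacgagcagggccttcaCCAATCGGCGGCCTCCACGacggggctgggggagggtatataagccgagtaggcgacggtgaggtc
CALR (chr19:12938359-12938608, plus strand): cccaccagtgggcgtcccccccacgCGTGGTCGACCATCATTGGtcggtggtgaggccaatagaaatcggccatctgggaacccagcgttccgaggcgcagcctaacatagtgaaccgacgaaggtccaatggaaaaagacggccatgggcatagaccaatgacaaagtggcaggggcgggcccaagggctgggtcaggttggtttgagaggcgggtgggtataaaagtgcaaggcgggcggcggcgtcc
HERPUD1 (chr16:56931892-56932141, plus strand): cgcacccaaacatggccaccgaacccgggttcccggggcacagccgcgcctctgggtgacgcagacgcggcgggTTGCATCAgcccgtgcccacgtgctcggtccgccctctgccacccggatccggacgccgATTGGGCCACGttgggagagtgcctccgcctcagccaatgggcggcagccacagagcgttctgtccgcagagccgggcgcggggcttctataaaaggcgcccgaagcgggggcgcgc
ASNS (chr7:97872409-97872658, minus strand): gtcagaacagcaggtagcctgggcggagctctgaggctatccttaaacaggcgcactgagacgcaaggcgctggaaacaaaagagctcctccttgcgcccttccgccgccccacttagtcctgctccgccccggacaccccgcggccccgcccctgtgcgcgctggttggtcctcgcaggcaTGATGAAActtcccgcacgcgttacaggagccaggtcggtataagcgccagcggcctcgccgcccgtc
CHAC1 (chr15:40953221-40953470, plus strand): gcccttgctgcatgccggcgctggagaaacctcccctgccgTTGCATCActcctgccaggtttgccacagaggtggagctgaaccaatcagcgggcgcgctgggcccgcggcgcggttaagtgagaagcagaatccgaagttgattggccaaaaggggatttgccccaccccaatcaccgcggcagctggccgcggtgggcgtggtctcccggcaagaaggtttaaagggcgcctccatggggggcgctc

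HSPA5 and CALR each hold an ERSE, read on the opposite strand in CALR. HERPUD1 holds both an ERSE-II and a CARE, and ASNS and CHAC1 each hold a CARE. Among the 14 ATF6/XBP1 genes, 6 had an ERSE in a window (HSPA5, HSP90B1, PDIA6, CALR, CANX and CRELD2) and 2 an ERSE-II (SDF2L1 and HERPUD1). None of the 16 matched ATF4 genes had either, and of the sensors and factors XBP1 had an ERSE. Over 27305 genes with windows of the same length, 0.0916% had an ERSE and 0.0659% an ERSE-II. A CARE was found in 4 of 16 ATF4 genes (ATF3, CEBPG, ASNS and CHAC1), in 1 of 14 ATF6/XBP1 genes (HERPUD1) and in 3.89% of all genes. The UPRE was in none of the 35 and in 0.78% of all genes. Several of these genes served to define such elements, so the matches describe the groups and carry no result.

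The libraries held 26217590 reads for SM-164, 31030478 for DMSO, 45535366 for CD30L+ CHO and 45885630 for CHO, as recovered from the deposited columns. Of 9 listed markers of this lymphoma, 8 were at an RPKM (reads per 1000 counted bases and per 1000000 reads of the library) of at least 0.5 in each library. The other was ALK, at 0.0966 to 0.137 RPKM, a low value per counted base from many reads. It had 1888 estimated reads with SM-164 and 2217 with DMSO, and 3206 on CD30L+ CHO and 4588 on CHO cells. Of 9 T cell surface genes, 4 reached that level with SM-164 and 4 with DMSO, and 1 on CD30L+ CHO and 3 on CHO cells. Of 5 myeloid markers 1 did so with SM-164 and 2 with DMSO, and 1 on CD30L+ CHO and 3 on CHO cells. None of 5 B cell markers and none of 9 stromal or epithelial markers, chosen for the hamster layer, did so in any library. The stromal or epithelial markers summed to 0.309 RPKM on CD30L+ CHO and 0.533 on CHO cells, and to 0.637 with SM-164 and 0.664 with DMSO. Hamster RNA can be seen here only where its reads align to the human genome.

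Genes with 300 or more counted bases and 0.5 RPKM or more on average over the pair of libraries compared are called tested here, although no statistical test was possible. The log2 ratio was taken of RPKM + 0.25, which shrinks differences between low values, and a gene was called at 2-fold or more on that scale. Ratios with an interval are ratios of reads over library totals, without the added 0.25, and their 95% intervals (exact, Clopper-Pearson) cover counting error only. Of the 37 genes, 31 were tested in all 3 comparisons. VLDLR, CRELD2, PSAT1 and PHGDH were below the minimum in each, and ERN1 and SDF2L1 in that of CD30L+ CHO with CHO cells.

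**Figure D1:**
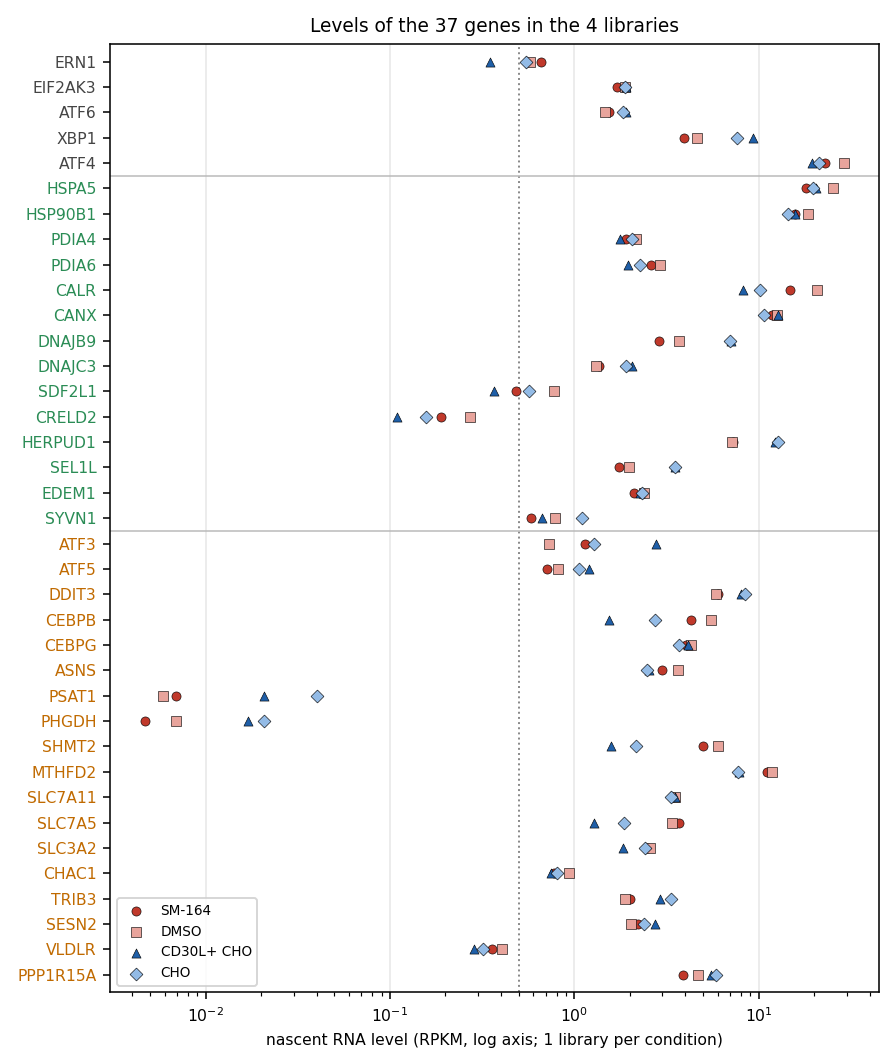
Nascent RNA level of the 37 genes as RPKM on a log axis, 1 point per library, with sensors and factors (grey names), ATF6/XBP1 genes (green) and ATF4 genes (orange). The dotted line marks 0.5 RPKM; ATF4 and HSPA5 stand highest, while PSAT1 and PHGDH lie below 0.05 RPKM in each library.

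Levels per length spread widely among the genes. ATF4 was the highest of the sensors and factors, with 22.8 RPKM with SM-164 and 29.1 with DMSO, and 19.4 on CD30L+ CHO and 21.1 on CHO cells. HSPA5, which encodes the main chaperone of the endoplasmic reticulum, BiP, led the ATF6/XBP1 genes, with 18.1 RPKM with SM-164 and 25.2 with DMSO, and 20.5 on CD30L+ CHO and 19.7 on CHO cells. HSP90B1 (the chaperone GRP94), CALR (calreticulin) and CANX (calnexin) were near or above 10 RPKM in each library, and HERPUD1 was so on both CHO layers. Among the ATF4 genes MTHFD2, a mitochondrial folate enzyme, was highest in the drug experiment, with 11.03 RPKM with SM-164 and 11.8 with DMSO. DDIT3, which encodes the stress factor CHOP, was highest in the co-culture experiment, with 8.03 RPKM on CD30L+ CHO and 8.40 on CHO cells. The lowest were PHGDH and PSAT1, successive enzymes of serine synthesis. PHGDH had 4 reads with SM-164 and 7 with DMSO, and 25 on CD30L+ CHO and 31 on CHO cells. PSAT1 had 6 reads with SM-164 and 6 with DMSO, and 31 on CD30L+ CHO and 61 on CHO cells. VLDLR, a lipoprotein receptor and ATF4 target, lay between 0.287 RPKM on CD30L+ CHO cells and 0.403 with DMSO. CRELD2, an ATF6 target with disulfide isomerase activity, lay between 0.109 RPKM on CD30L+ CHO cells and 0.271 with DMSO.

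Of the sensors and factors, ATF4 and XBP1 were lower with SM-164, by an amount that depended on the treatment of gene length, and the 3 sensor genes lay near their DMSO level. ATF4 had a read ratio of 0.786 (0.732 to 0.844), and XBP1 had 3.93 RPKM with SM-164 and 4.61 with DMSO, a ratio of 0.851 (0.766 to 0.945). The log2 ratio of ATF4 was -0.34, and -0.12 with the length trend subtracted, and that of XBP1 was -0.22, and -0.045 with the trend subtracted. All tested genes under 6000 counted bases, the class of ATF4, had a median of -0.22. Those from 6000 to under 30000, which include XBP1 with 6013, had -0.08. ATF6 had 1.54 RPKM with SM-164 and 1.46 with DMSO, a ratio of 1.05 (1.02 to 1.09). For both kinase genes the intervals included equality. EIF2AK3 had 1.71 RPKM with SM-164 and 1.89 with DMSO, a ratio of 0.905 (0.752 to 1.09). ERN1 had 0.657 RPKM with SM-164 and 0.573 with DMSO, a ratio of 1.15 (0.814 to 1.63). Both were counted over a small part of their length, 4.60% for ERN1 and 6.56% for EIF2AK3, and ERN1 rested on 69.0 estimated reads with SM-164 and 71.2 with DMSO.

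In hg19 coordinates, ATF4 lies on the plus strand at chr22:39916569-39918691 and XBP1 on the minus strand at chr22:29190548-29196560. HSPA5 lies on the minus strand at chr9:127997127-128003666, CALR on the plus strand at chr19:13049414-13055304, ATF3 on the plus strand at chr1:212738676-212794119 and SHMT2 on the plus strand at chr12:57623356-57628718. Each value counts exons and introns together over these spans.

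With SM-164 the ATF6/XBP1 genes were mostly slightly lower than with DMSO, and the ATF4 genes less so. The median log2 ratio was -0.17 over 13 tested ATF6/XBP1 genes and -0.08 over 15 tested ATF4 genes, with -0.04 over all 7881 tested genes. Of the ATF6/XBP1 genes 11 of 13 were below 0, of the ATF4 genes 10 of 15, and of all tested genes 4989 of 7881. The difference between the group medians was -0.09 on the log2 scale. Summed over all 14 genes, ATF6/XBP1 reads were 1436 per 1000000 reads with SM-164 and 1626 with DMSO, a ratio of 0.883 (0.871 to 0.895). Summed over all 18 genes, ATF4 gene reads were 1017 per 1000000 reads with SM-164 and 1027 with DMSO, a ratio of 0.990 (0.974 to 1.01). None of the 33 tested genes was called at 2-fold, where the background was 0.19% of tested genes higher and 0.0634% lower. None reached 1.5-fold either, against 0.787% higher and 1.1% lower.

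The lowest log2 ratio of an ATF6/XBP1 gene with SM-164 was that of CALR, a calcium-binding lectin chaperone, at 14.7 RPKM against 20.7 with DMSO, a read ratio of 0.712 (0.676 to 0.751). HSPA5 was close to it at 0.717 (0.685 to 0.750). The log2 ratio of both was -0.48, and -0.31 with the length trend subtracted. SDF2L1, a partner of BiP, had 26 reads with SM-164 and 49 with DMSO, a ratio of 0.628 (0.375 to 1.03). It passed the minimum only through its DMSO value. The folding genes had a median log2 ratio of -0.23 over 9 tested, and the degradation genes -0.16 over 4. The highest ratio of an ATF6/XBP1 gene was that of DNAJC3, which encodes the BiP co-chaperone p58IPK, at 1.37 RPKM with SM-164 and 1.30 with DMSO. Its ratio was 1.05 (1.00 to 1.09). HERPUD1, a scaffold of the degradation complex, had 7.26 RPKM with SM-164 and 7.16 with DMSO, a ratio of 1.01 (0.959 to 1.07).

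ATF3, a stress-induced factor of the bZIP family that ATF4 and other pathways induce, stood apart from the other ATF4 genes with SM-164. It had 1.14 RPKM with SM-164 and 0.731 with DMSO, from 1660 estimated reads with SM-164 and 1257 with DMSO, a read ratio of 1.56 (1.45 to 1.68). Its log2 ratio of 0.51 exceeded 98.8% of tested genes. The lowest ratio of an ATF4 gene was that of CEBPB, a C/EBP factor that pairs with ATF4 and also serves inflammatory signals, at 4.28 RPKM with SM-164 and 5.49 with DMSO. Its ratio was 0.781 (0.660 to 0.923). DDIT3 was near equality, with 6.01 RPKM with SM-164 and 5.84 with DMSO, a ratio of 1.03 (0.922 to 1.15). 3 further ATF4 targets had log2 ratios slightly above 0, namely SLC7A5 (0.12), SESN2 (0.11) and TRIB3 (0.08). ASNS, which makes asparagine, had a ratio of 0.819 (0.768 to 0.873).

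**Figure D2:**
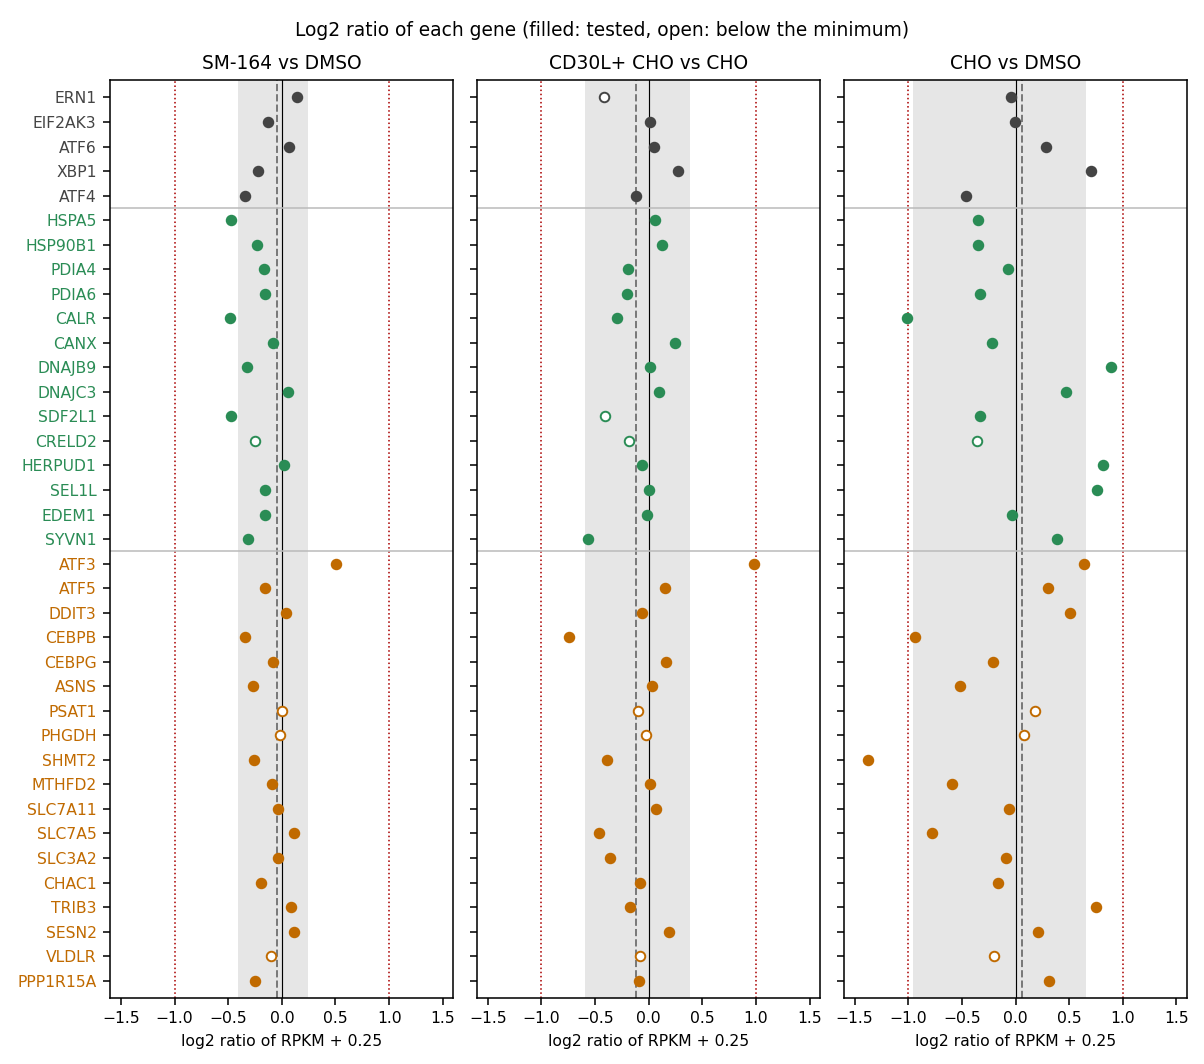
Log2 ratio of RPKM + 0.25 of each gene in the 3 comparisons, with filled points for tested genes, a grey band for the 5th to 95th percentile of all tested genes, a dashed line at their median and dotted lines at 2-fold. ATF3 lies right of the band in both treatments, at 0.51 with SM-164 and 0.99 with CD30L, and CALR (-1.01) and SHMT2 (-1.38) pass 2-fold between the controls.

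On CD30L+ CHO cells both groups lay near their level on CHO cells, with single genes apart. The median log2 ratio was -0.01 over 12 tested ATF6/XBP1 genes and -0.06 over 15 tested ATF4 genes, with -0.12 over all 7661 tested genes. The difference between the group medians was 0.05, and -0.06 with the length trend subtracted. Summed reads gave a ratio of 1.04 (1.03 to 1.06) over all 14 ATF6/XBP1 genes. Over all 18 ATF4 genes it was 1.06 (1.05 to 1.07), so sign and order differed from those of the medians. Relative to the median of all tested genes, 8 of 12 ATF6/XBP1 genes and 10 of 15 ATF4 genes were higher. Both group medians were above 0 once the all-gene median was set to 0 and under TMM scaling, so their sign depends on the scaling. None of 31 tested genes was called at 2-fold, where the background was 0.979% higher and 0.731% lower. At 1.5-fold 1 was higher and 1 lower, each 3.23% of those tested, against 2.62% and 4.99% of all tested genes.

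The higher gene was ATF3, with 2.78 RPKM on CD30L+ CHO and 1.28 on CHO cells. The values rest on 7018 estimated reads on CD30L+ CHO and 3255 on CHO cells, and the read ratio was 2.17 (2.08 to 2.27). On the log2 scale with 0.25 added it was 0.99, just short of the 2-fold line, and it passed that line with 0.1 added, with the all-gene median at 0, under TMM scaling and with the length trend subtracted. The lower gene was CEBPB, with 1.53 RPKM on CD30L+ CHO and 2.74 on CHO cells, from 147 estimated reads on CD30L+ CHO and 265 on CHO cells. Its ratio was 0.559 (0.454 to 0.686). CEBPB is a single-exon gene of 2108 counted bases, and genes under 6000 bases were lower as a class. The T cell surface genes summed to 2.04 RPKM on CD30L+ CHO and 3.39 on CHO cells; their part in these differences was not tested.

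XBP1 had the highest ratio of the sensors and factors on CD30L+ CHO cells, with 9.27 RPKM against 7.65 on CHO cells, a ratio of 1.21 (1.14 to 1.28). ATF4 had a ratio of 0.923 (0.866 to 0.983) and ATF6 of 1.04 (1.02 to 1.06). EIF2AK3 had 1.89 RPKM on CD30L+ CHO and 1.87 on CHO cells, a ratio of 1.01 (0.879 to 1.17). ERN1 had 63.3 estimated reads on CD30L+ CHO and 100.5 on CHO cells, a ratio of 0.635 (0.456 to 0.879), and was below the expression minimum. The log2 ratio of ATF4 was -0.12 as reported and above 0 with median centring, TMM scaling or the length trend subtracted.

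CANX had the highest ratio of the ATF6/XBP1 genes on CD30L+ CHO cells, with 12.7 RPKM against 10.7 on CHO cells, a ratio of 1.19 (1.16 to 1.21). The lowest was SYVN1, the ubiquitin ligase HRD1 of the degradation complex, with 0.664 RPKM on CD30L+ CHO and 1.11 on CHO cells, a ratio of 0.600 (0.505 to 0.711). CALR had 8.19 RPKM on CD30L+ CHO and 10.1 on CHO cells, a ratio of 0.811 (0.767 to 0.858). HSPA5 and HSP90B1 were near equality, at 1.04 (1.00 to 1.08) and 1.09 (1.07 to 1.12). After CEBPB, the lowest log2 ratios of the ATF4 genes were those of 3 of the 6 tested genes of amino acid supply. SLC7A5, the light chain of the large neutral amino acid transporter, had 1.28 RPKM on CD30L+ CHO and 1.85 on CHO cells, a ratio of 0.690 (0.654 to 0.728). SLC3A2, its heavy chain, had 1.82 RPKM on CD30L+ CHO and 2.41 on CHO cells, a ratio of 0.756 (0.720 to 0.795). The mitochondrial serine enzyme SHMT2 had 1.59 RPKM on CD30L+ CHO and 2.15 on CHO cells, a ratio of 0.736 (0.644 to 0.840). SLC7A11, the cystine transporter that pairs with the same heavy chain, had 3.53 RPKM on CD30L+ CHO and 3.35 on CHO cells, a ratio of 1.05 (1.03 to 1.08). The 2 genes below the expression minimum, PSAT1 and PHGDH, had ratios of 0.512 (0.321 to 0.802) and 0.813 (0.460 to 1.42).

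Set side by side, both treatments had ATF3 as the gene of the set with the highest log2 ratio. The drug and co-culture comparisons share no library. Of 31 genes tested in both, 4 were above 0 with both treatments and 11 were below 0 with both. A further 12 were lower with SM-164 and higher on CD30L+ CHO cells, and 4 were the reverse. Most tested genes were below 0 in each comparison, 4989 of 7881 with SM-164 and 5516 of 7661 with CD30L. The same joint split over all genes was not computed, so the pattern is no trait of the set. HSPA5 had a log2 ratio of -0.48 with SM-164 and 0.05 with CD30L, and XBP1 -0.22 and 0.27. SLC7A5 ran the other way, with 0.12 with SM-164 and -0.46 with CD30L. No test of these differences could be made with 1 library per condition.

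The remaining genes had these levels. Of the folding genes, the disulfide isomerase gene PDIA4 had 1.90 RPKM with SM-164 and 2.17 with DMSO, and 1.76 on CD30L+ CHO and 2.05 on CHO cells. PDIA6, of the same family, had 2.605 RPKM with SM-164 and 2.92 with DMSO, and 1.95 on CD30L+ CHO and 2.28 on CHO cells. Both were slightly lower in each treated library than in its control. EDEM1 stayed between 2.11 RPKM with SM-164 and 2.38 with DMSO, the narrowest spread of the degradation genes. Of the ATF4 genes, ATF5, a bZIP factor of the mitochondrial stress response, had 0.709 RPKM with SM-164 and 0.817 with DMSO, and 1.21 on CD30L+ CHO and 1.06 on CHO cells. CEBPG, the partner with which ATF4 dimerises, lay between 3.67 RPKM on CHO cells and 4.30 with DMSO. SESN2, a leucine sensor that restrains mTORC1, was slightly higher in each treated library, with 2.22 RPKM with SM-164 and 2.03 with DMSO, and 2.75 on CD30L+ CHO and 2.38 on CHO cells. PPP1R15A (GADD34), the stress-induced subunit that reverses eIF2 phosphorylation, had 3.90 RPKM with SM-164 and 4.67 with DMSO, and 5.48 on CD30L+ CHO and 5.86 on CHO cells. Its log2 ratio with CD30L changed sign with the scaling. TRIB3, a pseudokinase that restrains ATF4 and AKT signalling, had 2.01 RPKM with SM-164 and 1.88 with DMSO, and 2.92 on CD30L+ CHO and 3.33 on CHO cells. CHAC1, which breaks down glutathione, had 63 reads with SM-164 and 89 with DMSO, and 105 on CD30L+ CHO and 114 on CHO cells. These are too few to set it apart from equality by its interval.

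The 2 controls lay further apart than either treatment from its own control: the middle 90% of tested genes spanned log2 ratios from -0.94 to 0.65 between the controls, -0.40 to 0.23 with SM-164 and -0.58 to 0.37 with CD30L. Plain CHO co-culture was set against DMSO as a measure of how far apart the experiments lie, and it shares a library with each treatment comparison. The group medians were near 0, at -0.07 over 13 tested ATF6/XBP1 genes and -0.09 over 15 tested ATF4 genes, with 0.06 over all 8081. The group difference was 0.02, but -0.07 without an expression minimum and -0.04 with the length trend subtracted. Summed reads set the groups further apart. Their ratio was 1.00 (0.988 to 1.01) over all 14 ATF6/XBP1 genes and 0.879 (0.866 to 0.892) over all 18 ATF4 genes. At 2-fold 0 of 33 tested genes were higher and 2 lower, where the background was 0.879% and 4.52%. Both lower genes, CALR and SHMT2, had under 6000 counted bases. In that length class 296 of all 1376 tested genes (21.5%) were called lower, and 2 of 12 genes of the set (16.7%). At 1.5-fold 6 of the 33 were higher and 5 lower, which is 18.2% and 15.2%, against 7.07% and 10.7% of all tested genes. The 6 higher genes were DNAJB9, HERPUD1, SEL1L, TRIB3, XBP1 and ATF3, and the 5 lower were SHMT2, CALR, CEBPB, SLC7A5 and MTHFD2.

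XBP1 and genes of degradation were among those higher in the CHO library. XBP1 had 7.65 RPKM on CHO cells and 4.61 with DMSO, a ratio of 1.66 (1.53 to 1.797). DNAJB9, the BiP co-chaperone ERdj4 and a known XBP1 target, had 7.003 RPKM on CHO cells and 3.67 with DMSO, a ratio of 1.91 (1.73 to 2.10). HERPUD1 had 12.8 RPKM on CHO cells and 7.16 with DMSO, a ratio of 1.79 (1.71 to 1.87). XBP1, DNAJB9 and HERPUD1 were higher in both CHO libraries than in both drug libraries. So were other genes of the set, among them SEL1L, DNAJC3 and TRIB3, while CALR and SHMT2 were lower in both. The share of all genes that separate in this way was not computed. SEL1L, the adaptor of the HRD1 ligase, had 3.51 RPKM on CHO cells and 1.97 with DMSO, a ratio of 1.78 (1.71 to 1.85). SYVN1 had a ratio of 1.41 (1.17 to 1.69), while EDEM1, a lectin that hands glycoproteins to degradation, was near equality at 0.972 (0.923 to 1.02). The median log2 ratio of the 4 degradation genes was 0.57. Of the sensor genes, ATF6 had a ratio of 1.25 (1.22 to 1.29). EIF2AK3, at 0.992 (0.848 to 1.16), and ERN1, at 0.952 (0.696 to 1.31), had intervals that included equality.

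Most folding genes were lower in the CHO library. CALR was called lower, with 10.1 RPKM on CHO cells and 20.7 with DMSO, a ratio of 0.489 (0.465 to 0.514). HSPA5 had a ratio of 0.784 (0.755 to 0.814), HSP90B1 of 0.783 (0.762 to 0.804) and the disulfide isomerase gene PDIA6 of 0.779 (0.739 to 0.820). The 9 tested folding genes had a median log2 ratio of -0.33, and their values overlapped those of the degradation genes. DNAJB9 and DNAJC3, at 1.91 and 1.45 (1.41 to 1.51), were the folding genes above 0.

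Among the ATF4 genes, all 6 tested genes of amino acid supply were lower in the CHO library, with a median log2 ratio of -0.55. Of all tested genes 3538 of 8081 were below 0. SLC7A11, at 0.954 (0.928 to 0.981), and SLC3A2, at 0.934 (0.888 to 0.982), were close to equality. SHMT2 was called lower, with 2.15 RPKM on CHO cells and 5.99 with DMSO, a ratio of 0.359 (0.323 to 0.400). MTHFD2, which works beside SHMT2 in mitochondrial folate metabolism, had a ratio of 0.656 (0.633 to 0.680), and SLC7A5 one of 0.550 (0.525 to 0.576). ASNS was at 0.679 (0.641 to 0.719). The bZIP factors went both ways. The stress factors ATF3, at 1.75 (1.64 to 1.87), DDIT3, at 1.44 (1.31 to 1.57), and ATF5, at 1.30 (1.05 to 1.62), were higher, while CEBPB, at 0.499 (0.424 to 0.587), and CEBPG, at 0.854 (0.791 to 0.922), were lower. Of the stress effectors TRIB3 was at 1.78 (1.65 to 1.91), PPP1R15A at 1.25 (1.13 to 1.397) and SESN2 at 1.18 (1.10 to 1.25), and CHAC1 was at 0.866 (0.651 to 1.16). The ATF4 gene had a ratio of 0.725 (0.681 to 0.772), and its log2 ratio turned from -0.46 to 0.05 with the length trend subtracted. PSAT1 and PHGDH had read ratios of 6.88 (2.98 to 19.5) and 2.99 (1.29 to 8.06) from the few reads given above.

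Between the controls, the lymphoma markers summed to 56.0 RPKM in the CHO and 93.8 in the DMSO library, with 8 of 9 at 0.5 RPKM or more and none at 0 reads in both. The stromal or epithelial markers summed to 0.533 RPKM in the CHO and 0.664 in the DMSO library, with 0 of 9 at that level in both and 1 and 0 of 9 at 0 reads in the CHO and DMSO libraries. The T cell surface genes summed to 3.39 RPKM in the CHO and 6.43 in the DMSO library. Their part in the differences was not tested. Experiment, depth, collection and the CHO layer cannot be told apart in this comparison, nor can fewer cells with a transcript and less of it per cell.

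**Figure D3:**
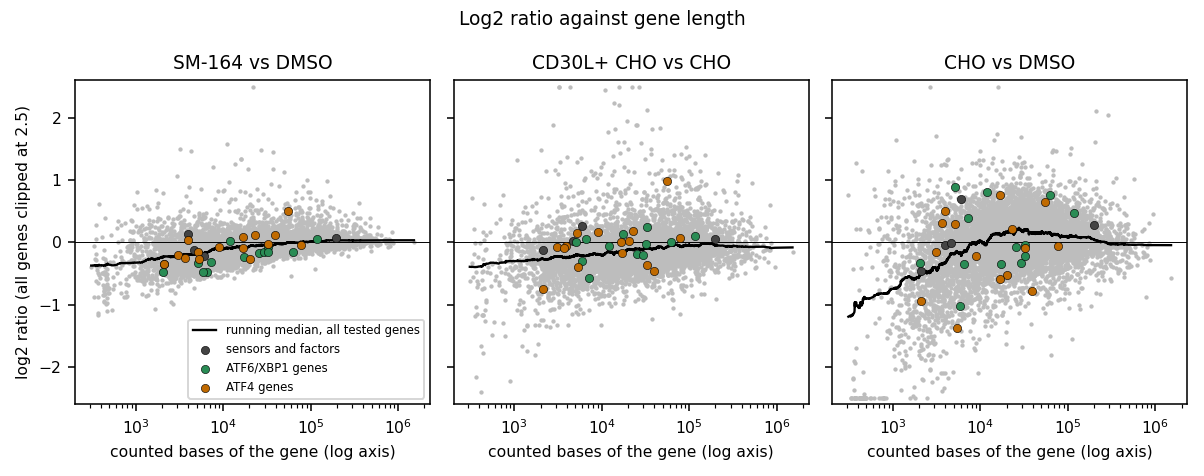
Log2 ratio of RPKM + 0.25 against counted bases on a log axis for all tested genes (grey, clipped at 2.5 either way) and for the tested genes of the set by group, with the running median of all tested genes in black. The running median falls toward short genes in all 3 panels, most steeply between the controls.

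Gene length moved with all 3 comparisons. With SM-164, all tested genes under 6000 counted bases had a median log2 ratio of -0.22, those from 6000 to under 30000 had -0.08, and longer ones had -0.0011. The genes of the set in these classes had -0.25 over 12, -0.16 over 12 and -0.03 over 9. On CD30L+ CHO cells, all genes had -0.24, -0.15 and -0.07 in the 3 classes. The genes of the set had -0.08 over 10, 0.02 over 12 and 0.05 over 9, above all genes of the class each time. Between the controls, all genes had -0.39, 0.09 and 0.11, and the genes of the set had -0.10 over 12, -0.14 over 12 and -0.04 over 9. Subtracting the length trend left the SM-164 median at -0.14 for the ATF6/XBP1 genes and at 0.027 for the ATF4 genes.

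**Figure D4:**
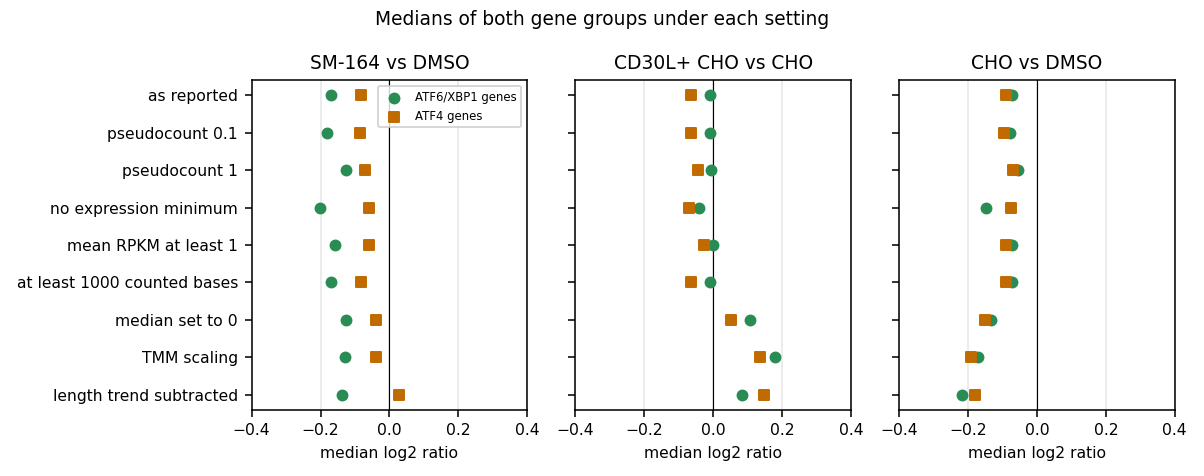
Median log2 ratio of the ATF6/XBP1 genes (green circles) and ATF4 genes (orange squares) under each setting, for the 3 comparisons. With SM-164 the ATF6/XBP1 median lies left of the ATF4 median in every row shown, while on CD30L+ CHO cells the order and the sign change with the setting.

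Other genes of the pathway were taken from lists drawn up by name. Of 29 further folding and degradation genes, 24 were tested with SM-164, with a median log2 ratio of -0.07 and none at 1.5-fold. They ranged from SERP1 (-0.37), which stabilises membrane proteins during stress, to TXNDC11 (0.18). Of 41 further ATF4 pathway genes 31 were tested, with a median of -0.07 and none at 1.5-fold, from the proline enzyme gene PYCR1 (-0.54) to PPP1R15B (0.14), a subunit of the eIF2 phosphatase. On CD30L+ CHO cells the medians were -0.05 over 27 and -0.09 over 29, with none at 2-fold. At 1.5-fold 1 of 27 was higher (CREB3, 3.7%) and 2 of 29 were lower (SLC1A5 and VEGFA, 6.9%). Of all tested genes 2.62% were higher and 4.99% lower at that threshold. VEGFA had a log2 ratio of -0.64. CREB3, a membrane-bound factor related to ATF6, was highest of the first list, with 1.38 RPKM on CD30L+ CHO and 0.730 on CHO cells, a log2 ratio of 0.74. CREB3L2, of the same family, was lowest at -0.42. In the second list PPP1R15B was highest, with 18.2 RPKM on CD30L+ CHO and 12.2 on CHO cells, a log2 ratio of 0.56. The glutamine transporter gene SLC1A5 was lowest, with 2.33 RPKM on CD30L+ CHO and 3.97 on CHO cells, a log2 ratio of -0.71.

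Between the controls the further folding and degradation genes had a median log2 ratio of 0.23 over 26 tested, and 21 of 26 were above 0, where 4543 of all 8081 tested genes were. ERO1LB, an oxidase of disulfide formation, was called higher, with 1.07 RPKM on CHO cells and 0.234 with DMSO, and passed the minimum only through its CHO value. P4HB, a disulfide isomerase, was lowest at -0.72. The further ATF4 pathway genes had a median of -0.15 over 31 tested, from PYCR1 (-1.26), called lower with 0.226 RPKM on CHO cells and 0.891 with DMSO, to KLHL24 (0.61). PYCR1 passed the minimum only through its DMSO value.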

How the data were processed

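Each of the 4 files is 1 Bru-seq library of Karpas 299 cells. The submitters' processing notes name genome build hg19 and the tools bedtools 2.16.2, TopHat 1.4.1, CASAVA 1.8.2 and Bowtie 0.12.8, without their roles. No source used here names the gene annotation. The authors deposited an estimated count of reads for each feature, exons plus introns, some of them fractional. They also deposited the signal per base, which is that count over the counted bases, and the RPKM, scaled by 1 library total per file. Totals were recovered from these columns. Estimated counts were rounded to whole reads for ratios. Copies with similar sequence, such as the pseudogenes of ATF4 and HSP90B1, make those counts uncertain.

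Sense features were used, with the entry of most counted bases for a symbol with several, which left 22798 genes. Genes, groups and lists were chosen with earlier results of these data known. Genes described in full were those at 2-fold, the highest and lowest of each group, and the 5 sensors and factors, with the same extremes of the further pathway lists; others were added after their values were seen. Alternatives were a pseudocount of 0.1 or 1 RPKM, no minimum or 1 RPKM, 1000 counted bases, a threshold of 1.5-fold, 2-fold together with an interval that excludes equality, median centring, TMM scaling (edgeR 4.0.16, R 4.3.3), subtraction of a running median over genes ordered by length, summed entries, and groups without bZIP factors or degradation genes. The steps were tested on simulated data. Software was matplotlib 3.10.9, scipy 1.17.1, pandas 2.3.3 and numpy 2.4.6 under Python 3.11.15. A count of 0 allows up to 3 reads, 0.0654 to 0.114 per 1000000 reads here.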

Additional observations from a re-analysis of the deposited data

Results flagged for a closer look

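For 5 genes, reads differed in opposite directions with SM-164 and CD30L. Both counting intervals lay on opposite sides of equality, before and after the median of all genes was set to 0. The share of all tested genes that meet this rule was not computed. With many reads such intervals exclude equality at small differences, as for CANX with SM-164 at 0.945 (0.920 to 0.970). With the length trend subtracted, the SM-164 log2 ratio of XBP1 was only -0.045. The difference between the treatments was not tested, because each rests on 1 library per arm. As the log2 ratio with SM-164 minus that with CD30L, it was -0.53 for HSPA5, -0.49 for XBP1, -0.36 for HSP90B1, -0.32 for CANX and 0.58 for SLC7A5. The first 4 were lower with SM-164 and higher with CD30L, and SLC7A5 the reverse.

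Reads on the strand opposite a gene were outside the comparisons above. Per the labels, strand-specific cDNA synthesis applied to certain samples, and the labels used here do not say which. Reads in opposite-strand features were 3.54% of the library total with SM-164 and 3.56% with DMSO, and 3.31% on CD30L+ CHO and 3.57% on CHO cells. At 2 genes these reads were at least 2-fold higher in a treated library than in its control, with a counting interval above equality. Further genes had such ratios from few reads, with intervals that included equality. The share of all opposite-strand features that meet this rule was not computed. At ATF3 there were 601 such reads on CD30L+ CHO and 191 on CHO cells, a ratio of 3.17 (2.69 to 3.75). They were 8.56% and 5.87% of the sense level. Such reads also differed between the CHO and DMSO controls, with a ratio of 2.58 (1.88 to 3.60) at ATF3. The ratio there was 3.35 (2.08 to 5.64) at HSP90B1 and 0.162 (0.0545 to 0.405) at CANX. At ATF6 there were 25 with SM-164 and 13 with DMSO, a ratio of 2.28 (1.12 to 4.84), at 0.314% and 0.145% of the sense level.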

How the results depend on the processing

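No paired analysis was possible because each condition has 1 library. Of 159 recomputed medians, differences and counts, 137 stayed within the counting spread or within 1.5 times. Some of the 137 could not move. Each gene of the set has a single entry and exceeds the raised minimum of counted bases. Summing entries or applying that minimum therefore returned the main values. Median centring likewise cannot alter a difference between group medians. The tally thus overstates how stable the results are. The spread was built from the intervals of single genes, added over both groups for a difference, and is not the counting error of a median. A difference could thus change sign and count as unmoved. With the length trend subtracted, the CD30L difference went from 0.05 to -0.06. Between the controls it went from 0.02 to -0.04 in that setting and to -0.07 without an expression minimum. The values that moved follow, with the cause not tested. With the all-gene median at 0, the CD30L median of the ATF6/XBP1 genes was 0.11. Under TMM scaling, which shifted all genes by 0.17 there, it was 0.18 and that of the ATF4 genes 0.14, and the ATF4 median between the controls was -0.19. With the length trend subtracted, the ATF4 median was 0.027 with SM-164. In the same setting the medians with CD30L were 0.083 (ATF6/XBP1) and 0.15 (ATF4), and between the controls -0.22 and -0.18. Genes at 2-fold higher with CD30L numbered 1 with a pseudocount of 0.1, with median centring, under TMM and with the length trend subtracted. Between the controls, that trend gave 1 higher and 1 lower, and a pseudocount of 1 gave 1 lower. The 1.5-fold threshold gave 1 higher and 1 lower with CD30L, and 6 and 5 between the controls. Without the degradation genes the ATF6/XBP1 median between the controls was -0.33 and the difference from the ATF4 genes -0.24. Single genes changed sign under at least 1 setting in 6 of 33 cases with SM-164, 7 of 31 with CD30L and 5 of 33 between the controls. Few reads limit PSAT1, PHGDH, CRELD2, SDF2L1 and ERN1.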

Other observations

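Opposite-strand reads were highest relative to the gene's own strand at SYVN1, among genes with more than a few reads. They were 21.0% of its sense level with SM-164 and 24.2% with DMSO, and 31.9% on CD30L+ CHO and 22.5% on CHO cells. At DDIT3 the share was 9.04% with SM-164 and 6.82% with DMSO, and 4.46% on CD30L+ CHO and 3.33% on CHO cells. At ATF3 it was 3.86% with SM-164 and 3.98% with DMSO.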
